A study of Mus musculus with 12 samples.

Results

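Cytosolic ribosomal protein mRNAs encode the proteins that, with ribosomal RNA, build the large and the small subunit of the ribosomes outside mitochondria. The mRNAs described here were chosen by name alone, with no measured value: protein-coding genes whose symbol is Rpl or Rps followed by a number and at most a short suffix, with Rpsa, Rplp0, Rplp1 and Rplp2 added and the Rps6k kinases left out. The rule found 83 of the 54532 genes in the deposited count table, 51 of the large subunit and 32 of the small subunit. The study asked which mRNAs are translated near the cortex of mouse keratinocytes, the main cells of the epidermis, and how wounding changes this. All cells had the genotype WT DP-BirA(1-584), a doxycycline-induced protein in which residues 1 to 584 of DP, the desmosomal plaque protein desmoplakin, are joined to the biotin ligase BirA. Every culture was grown to confluence in medium without calcium, then received calcium and 2 µg/mL doxycycline, was wounded or left intact, and was given biotin for 16 h. Translating material from a sucrose gradient was bound to neutravidin, which holds biotinylated complexes. The bound part gave the cortical libraries, and what the resin did not hold gave the libraries called total, which therefore lack the captured part.

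There were 4 groups of 3 libraries each, total and cortical from unwounded cells and total and cortical from wounded cells. The titles call the 3 libraries of a group biological replicates, but the labels name no line, clone, animal or dish, so p-values measure the spread between these libraries only. The labels do not say how the wounds were made or what share of the cells lay next to one. In bulk RNA such as this, fewer cells of a type and less RNA per cell cannot be told apart.

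Ribosomal proteins are needed in equal numbers, because a ribosome holds a single copy of nearly all of them, and their mRNAs are among the most abundant in dividing cells. Many of these mRNAs begin with a C followed by an unbroken run of pyrimidines, the 5′ terminal oligopyrimidine or TOP motif. Through this motif their entry into polysomes depends on mTOR signalling and on the RNA-binding protein LARP1. They are short mRNAs with short coding sequences, so a translated one carries few ribosomes.

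The first bases of 6 of the mRNAs whose values are given below are shown, because the TOP motif is the sequence by which this class is recognised. Each line gives 10 bases before and 20 bases from the start annotated by RefSeq (GRCm38.p6, 5′ to 3′ on the gene's strand), with the unbroken pyrimidine run from the annotated start in capitals. They lie at chr3:90213629-90213658 on the minus strand (Rps27), chr11:114668570-114668599 on the plus strand (Rpl38), chr2:39005112-39005141 on the minus strand (Rpl35), chr7:141447641-141447670 on the plus strand (Rplp2), chr4:86857348-86857377 on the minus strand (Rps6) and chr17:33955646-33955675 on the minus strand (Rps18).
Rps27: cgctttcgctCCTTTCCggcggtgacgacc
Rpl38: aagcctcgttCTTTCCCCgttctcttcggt
Rpl35: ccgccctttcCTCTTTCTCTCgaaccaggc
Rplp2: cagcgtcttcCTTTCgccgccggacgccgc
Rps6: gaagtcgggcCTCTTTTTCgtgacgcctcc
Rps18: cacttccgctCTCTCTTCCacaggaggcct
Of the 83 mRNAs, 63 had a RefSeq start window. At an annotated start, 13 of the 63 (20.6%) had a C followed by at least 4 more C or T bases, read on the gene's strand only, against 3.01% of the 27025 genes with a window. A C followed by at least 7 pyrimidines anywhere from 10 bases before to 20 after the start was found for 38.1% of them and for 10.1% of all genes. Annotated starts can lie some bases away from the base at which transcription begins, so no match says only that these letters are not at that place.

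The libraries held 8980013 to 23457548 gene counts. Levels are given as CPM, the count per 1e+06 counts of a library scaled by edgeR's TMM factors, which align the bulk of the genes between libraries. All 11 keratinocyte markers on the list (Krt5, Krt14 and others) were present, and their summed level was 11031 to 12142 CPM in unwounded total, 15496 to 15597 in unwounded cortical, 17704 to 20271 in wounded total and 20998 to 21314 in wounded cortical libraries. Fibroblast, melanocyte and endothelial lists summed to at most 6.47 CPM in any library. Leukocyte markers summed to 17.8 to 24.9 CPM in unwounded and 32.9 to 58.7 CPM in wounded libraries, with Cd68 as the 1 leukocyte marker of 5 that could be tested and Lyz2 and Adgre1 at 0 in all 4 groups. The part of these differences in the results was not tested. Wounded total replicate 1 stood apart, with 13117 genes detected against 14393 to 16867 in the other libraries. As set out below, wounded total replicate 1 and unwounded total replicate 2 also differed most from the other libraries of their groups in the ribosomal protein mRNAs.

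Ribosomal protein mRNAs took a similar share of all counts in every group. The share was 19.5%, 23.3% and 19.4% in unwounded total replicates 1 to 3, and 21.03%, 20.9% and 20.8% in unwounded cortical. After wounding it was 20.5%, 23.8% and 23.1% in total and 20.9%, 19.8% and 20.97% in cortical libraries. The cortical libraries lay close together, while the total libraries spread widely, and the total range overlapped the cortical range in unwounded and in wounded cells. The large subunit took 12.4% ± 1.31, 12.5% ± 0.0569, 13.3% ± 0.961 and 12.3% ± 0.350 of counts (SD, n = 3) in total and cortical libraries of unwounded and then of wounded cells. The small subunit took 8.34% ± 0.944, 8.41% ± 0.0390, 9.11% ± 0.800 and 8.24% ± 0.300 in the same order. The ratio of large to small stayed within 1.45 to 1.52 in the 12 libraries, so the subunits moved together from library to library.

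**Figure D1:**
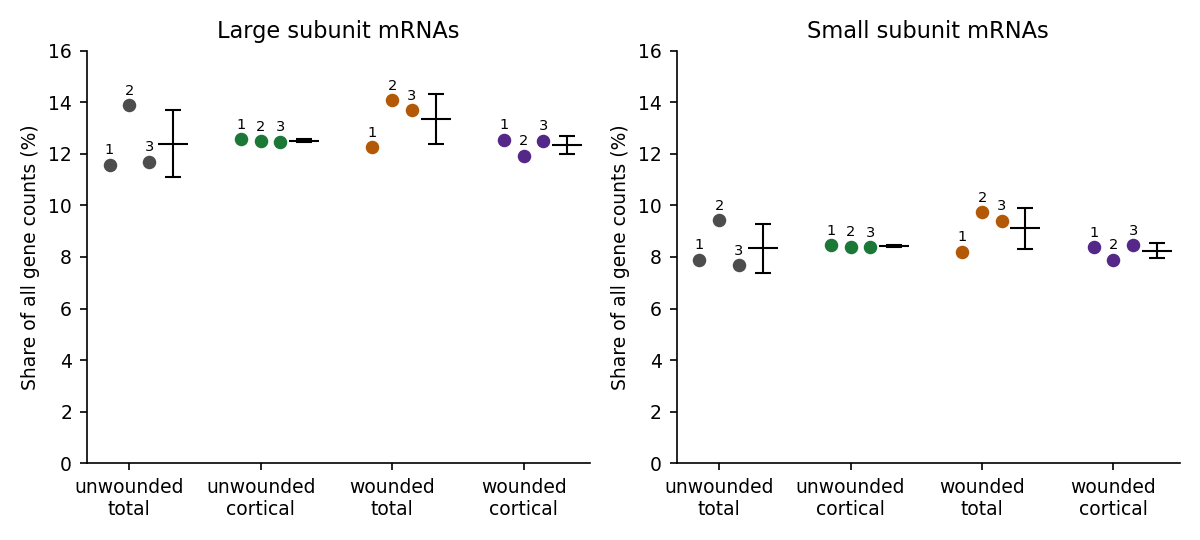
Share of all gene counts (%, vertical axis, from 0) in the 51 large subunit mRNAs (left) and the 32 small subunit mRNAs (right); points are libraries numbered by replicate and the bar beside them is mean ± SD (n = 3). Unwounded total replicate 2 and wounded total replicates 2 and 3 lie above all 6 cortical libraries in both panels.

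The shift of single total libraries ran through nearly the whole family. For the 77 mRNAs with a mean of at least 1000 counts, each library was compared with the mean log2 CPM of the other libraries of its group. Unwounded total replicate 2 was above that mean for 77 of 77, with a median of 0.37 log2 units over it. Wounded total replicate 1 was below the mean of the others of its group for 72 of 77, with a median of -0.53. The median coefficient of variation of an mRNA between libraries was 16.7% in unwounded total and 20% in wounded total, against 2.26% in unwounded cortical and 4.93% in wounded cortical libraries. Rps29, a zinc-binding protein of the small subunit head, varied most in unwounded total (43.4%) and in wounded cortical libraries (25.2%). Each contrast between total and cortical libraries below therefore rests on few, widely spread total libraries.

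**Figure D2:**
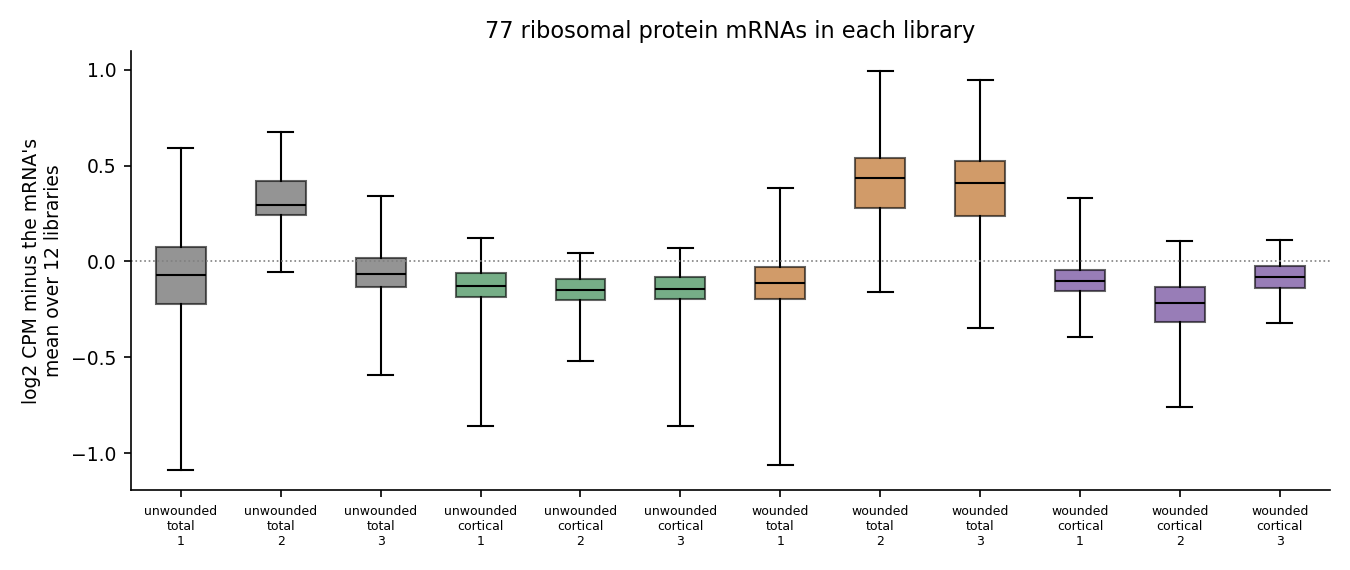
Level of 77 ribosomal protein mRNAs in each of the 12 libraries, as log2 CPM minus that mRNA's mean over all libraries (box: quartiles and median, whiskers: lowest and highest mRNA). Medians run from -0.21 in wounded cortical replicate 2 to 0.44 in wounded total replicate 2, and unwounded total replicate 2 lies with wounded total replicates 2 and 3.

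Levels differed more between the mRNAs than between the groups. By the authors' FPKM, which divides counts by the length of all exons of a gene, the highest were Rplp1 (mean 12587 FPKM over 12 libraries), a protein of the stalk that recruits elongation factors, Rps15 (7807 FPKM), a protein of the small subunit head, and Rpl36 (6294 FPKM), a large subunit protein. Divided by coding length in place of all exons, the order was Rpl41, the shortest ribosomal protein with 25 residues (55124 CPM per coding kilobase), Rplp1 (18510) and Rpl39 at the exit tunnel (14792). The order of levels thus depends on which length divides the counts. At the low end Rpl29 was the lowest mRNA that was tested, with 0.53 FPKM and 133 counts in all libraries together. How the counting treated reads that match several places is not known, so a low count here or below need not mean little mRNA.

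The lowest-counted genes did not enter the tests. Rpl24, a large subunit protein, had 71 counts in all 12 libraries together, and Rpl3l, the muscle paralog of Rpl3, had 2. Rpl10l and Rpl39l, paralogs known from testis, had 0 of 217801159 counts, which allows at most 3 counts or 0.0138 CPM and covers counting error only. This left 79 mRNAs tested, 47 of the large and 32 of the small subunit, among 13571 genes.

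Processed pseudogenes, intronless copies of these mRNAs elsewhere in the genome, hold near-identical sequence and took 1.09% to 1.62% of all counts per library. For Rps10, 99.4% of the counts in the gene and its named pseudogenes together lay in the pseudogenes, which goes with its 498 counts in the gene. The share was 63.5% for Rpl17, 59.2% for Rps13, 46.7% for Rpsa, 41.4% for Rpl3 and 38.9% for Rpl34. Which of these reads came from the gene cannot be read from the counts, so values of Rpl17, Rps13, Rpsa and Rps10 are given below also with the pseudogene counts added.

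In unwounded cells ribosomal protein mRNAs were on the whole slightly lower in the cortical than in the total fraction relative to other genes, and 9 of them fell. The median log2 fold change of the 79 was -0.19, against 0.00 for all 13571 genes, and with library size as the only scaling it was 0.00 against 0.19 for all genes. Relative to all genes it was -0.20 and -0.19 in these scalings. In edgeR's quasi-likelihood test (adjusted p under 0.05, the rule for rose and fell here), 9 of 79 fell and 0 rose, which is 11.4% lower, against 7.59% of all genes lower and 6.62% higher. With library size alone 4 rose and 5 fell, and with the trend on gene length taken out of each library 3 rose and 3 fell with a median of -0.02. The large subunit gave 7 of the 9, with a median of -0.19, and the small subunit 2, with a median of -0.21. The 9 included all 3 paralogs tested. Without paralogs 6 of 76 fell, or 7.89%, near the 7.59% of all genes and the 8.41% of protein-coding genes that were lower. The 3 cortical libraries lay below all 3 total libraries for 38 of 79, against 19.1% of all genes. An unadjusted p under 0.05 was found for 14 large and 9 small subunit mRNAs, all of them lower. Over all genes it was found for 3616 of 13571, 1869 of them lower.

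Rpl17, which lines the tunnel through which the new peptide leaves the ribosome, had the largest change among the called mRNAs. Its level was 947, 1313 and 865 CPM in the unwounded total libraries and 470.3, 664 and 466 CPM in the cortical ones. All 3 cortical values lay below all 3 total values, and the log2 fold change was -0.97 (SE 0.20, edgeR adjusted p = 0.00373). With the counts of its pseudogenes added it was -0.40 with an adjusted p of 0.0971. Rpl23a, also at the tunnel exit, where it binds the signal recognition particle, had 1387, 1362 and 1002 CPM in total and 825, 819 and 799 CPM in cortical libraries, a log2 fold change of -0.62 (SE 0.12, edgeR adjusted p = 0.00283). The groups did not overlap, and with the gene length trend removed the value was -0.29 (adjusted p = 0.235). Rps13, a small subunit protein at the interface with the large subunit, had 638, 786 and 602 CPM in total and 446, 457 and 436 CPM in cortical libraries (log2 fold change -0.60, SE 0.12, edgeR adjusted p = 0.004). It kept its call with pseudogene counts added (-0.50, adjusted p = 0.0346) and with each library left out in turn.

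Rps27l, a paralog of Rps27 induced by p53, Rpl27, a large subunit protein, and Rpl32, another, completed the 6 largest changes among the called mRNAs. Their log2 fold changes were -0.60 (SE 0.17), -0.56 (SE 0.14) and -0.46 (SE 0.12), with edgeR adjusted p of 0.0219, 0.0131 and 0.0174. Rps27l lay at 336, 446 and 285 CPM in total and 239, 242 and 224 CPM in cortical libraries. Rpl27 lay at 2935, 3715 and 2764 CPM in total and 2106, 2059.7 and 2219 CPM in cortical libraries. Rpl32 lay at 4087, 4857 and 3474 CPM in total and 3002, 2967 and 3039 CPM in cortical libraries. None of the 3 overlapped between fractions, and unwounded total replicate 2 was the highest library for each. Without that library their values were -0.39, -0.41 and -0.32 (adjusted p = 0.166, 0.0802 and 0.109). Each also lost its call without unwounded cortical replicate 1 or 2 (adjusted p = 0.055 to 0.0691), Rps27l and Rpl32 without cortical replicate 3 (0.0887 and 0.0623), and Rpl32 without total replicate 1 (0.0528).

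The count of 9 rested on single libraries. Without unwounded total replicate 2 it was 3 and the median -0.06. It was 5 without unwounded total replicate 1, and 4, 3 and 5 without unwounded cortical replicates 1, 2 and 3. Without wounded total replicate 1 it was 32. That library is not in this contrast but enters through the filter, the scaling factors and the shared estimate of spread. For alternative fits and left-out libraries, above and below, the share called over all genes is not given. Such counts therefore do not compare the family with other genes.

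In wounded cells 26 of the 79 fell in the cortical fraction and 0 rose. That is 32.9% lower, against 8.03% of all genes lower and 7.62% higher. The median log2 fold change was -0.39, against 0.04 for all genes, and with library size alone it was -0.16 against 0.25 for all genes, with 2 rising and 9 falling. It was lower in 76 of 79, and 51 had an unadjusted p under 0.05, all lower, against 3944 of 13571 genes, 1878 of them lower. The large subunit gave 17 calls of 47 with a median of -0.36, and the small subunit 9 of 32 with a median of -0.42. The cortical libraries lay below all total libraries for 31 of 79, against 12.9% of all genes. With the gene length trend removed 11 fell and the median was -0.22.

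Rps29 had the largest change among the mRNAs called in wounded cells. Its level was 1009, 1539.6 and 1435 CPM in wounded total and 699, 457 and 761 CPM in wounded cortical libraries. The groups did not overlap, and the log2 fold change was -1.06 (SE 0.25, edgeR adjusted p = 0.0108). In unwounded cells the same mRNA lay at 363, 924 and 654 CPM in total and 759.9, 717 and 699 CPM in cortical libraries, where the groups overlapped and the log2 fold change was 0.17 (SE 0.25). Without wounded cortical replicate 2, the lowest, the wounded value was -0.86 (adjusted p = 0.0639).
Rpl38, a small large-subunit protein whose loss in mice alters the axial skeleton, lay at 888, 2007 and 1992 CPM in wounded total and 907, 658 and 945 CPM in wounded cortical libraries. Total replicates 2 and 3 were high and replicate 1 lay within the cortical range, so the groups overlapped, although the log2 fold change was -0.96 (SE 0.28, edgeR adjusted p = 0.0268). It lost its call without wounded total replicate 2 or 3 (-0.78 and -0.79) or without cortical replicate 1, 2 or 3 (-1.02, -0.82 and -1.06), with adjusted p from 0.0549 to 0.12.

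The zinc-binding large subunit proteins Rpl37a and Rpl37 fell by 0.81 (SE 0.20, edgeR adjusted p = 0.012) and 0.71 (SE 0.21, edgeR adjusted p = 0.0324) on the log2 scale. Rpl37a lay at 2795, 4505 and 4423 CPM in wounded total and 2403, 1953 and 2342 CPM in wounded cortical libraries, without overlap. Rpl37 lay at 2321, 4044 and 4302 CPM in total and 2260.3, 1888 and 2350.2 CPM in cortical libraries, where total replicate 1 fell inside the cortical range. Rpl37 lost its call without any wounded library other than total replicate 1 (-0.78 to -0.55, adjusted p = 0.0666 to 0.132), and Rpl37a without wounded total replicate 2 (-0.69, 0.0509) or cortical replicate 2 (-0.72, 0.0665). Rpl27 fell again, with 2752, 3784 and 4024 CPM in wounded total and 1998, 1961 and 2227 CPM in wounded cortical libraries (log2 fold change -0.77, SE 0.14, edgeR adjusted p = 0.00195). It did not overlap between fractions and kept its call with each library left out. Rps27l lay at 256, 404 and 388 CPM in wounded total and 224, 203 and 226 CPM in wounded cortical libraries, also without overlap (log2 fold change -0.68, SE 0.17, edgeR adjusted p = 0.0109). Its adjusted p was 0.0533 without wounded total replicate 2 (-0.57) and 0.056 without cortical replicate 2 (-0.64).

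**Figure D3:**
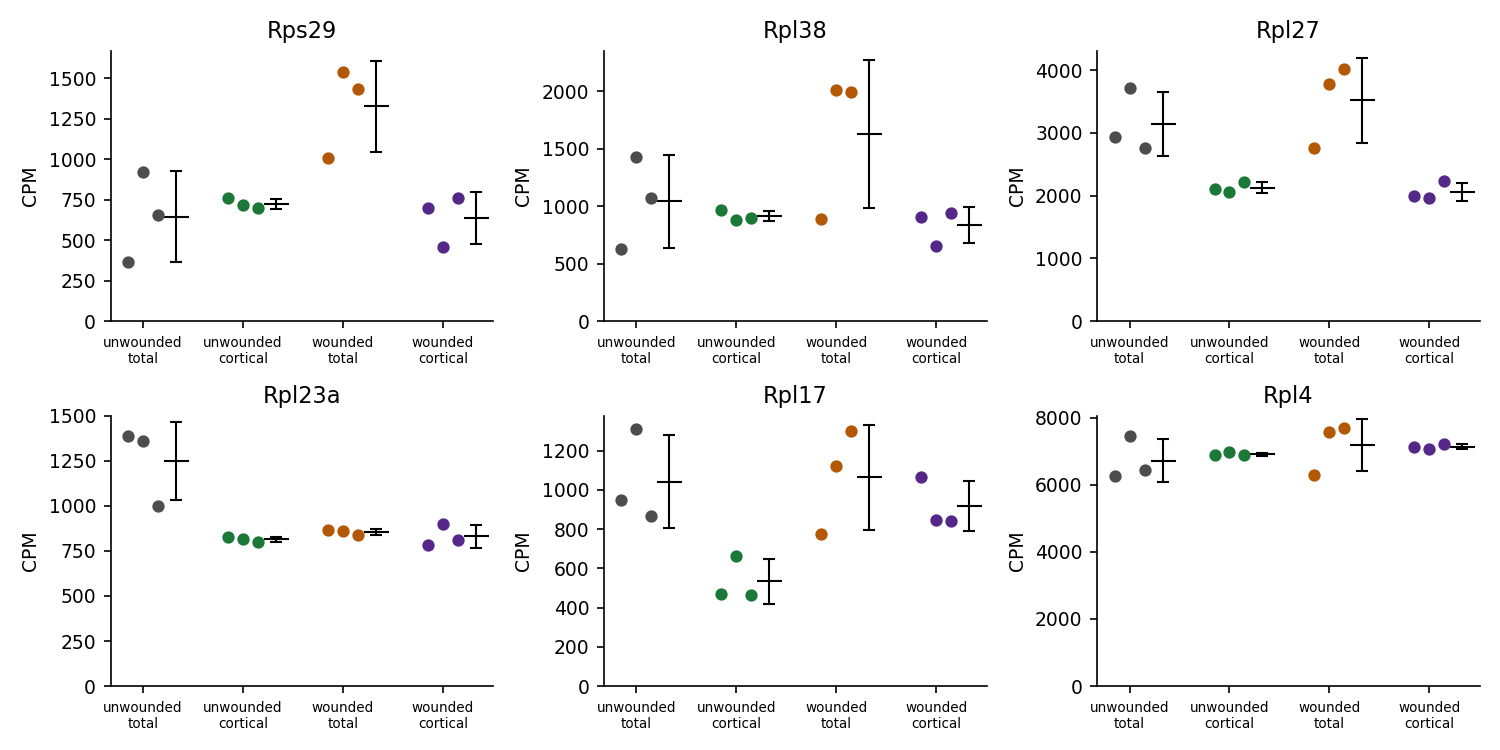
CPM (vertical axes, from 0) of 6 ribosomal protein mRNAs in the 12 libraries; points are libraries in the order of their replicate number and the bar beside them is mean ± SD (n = 3). Rpl27 is lower in both cortical groups, Rps29 is highest in the wounded total libraries, Rpl23a is high in unwounded total libraries only, and Rpl4, with 419 residues the longest, overlaps between the fractions in both conditions.

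The 26 calls depended on the libraries in the fit. Without wounded total replicate 1, the library in which the family was low, 64 were called and the median was -0.55. Without wounded total replicate 2 or 3 there were 3 and 7, and without wounded cortical replicate 1, 2 or 3 there were 5, 1 and 6. With only the 6 wounded libraries in the fit there were 5. The shares called over all genes in these fits are not given, so the counts do not set the family apart.

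Rpl27, Rpl7, Rps13 and Rps27l fell in the cortical fraction of both unwounded and wounded cells, which is 5.06% of the 79, close to the 4.22% of all genes tested that fell in both. These 4 are 44.4% of the family's lower calls in unwounded and 15.4% of those in wounded cells, against 55.6% and 52.6% of the lower calls over all genes. Rps13 was at -0.42 (SE 0.12, edgeR adjusted p = 0.0291) in wounded cells and at -0.50 (adjusted p = 0.0323) with pseudogene counts added. Rpl7, a large subunit protein, had the smallest of these changes, -0.33 (SE 0.10, edgeR adjusted p = 0.0399) in unwounded and -0.37 (SE 0.10, edgeR adjusted p = 0.022) in wounded cells. The fractions did not overlap in either condition for 18 of 79, against 7.53% of all genes.

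**Figure D4:**
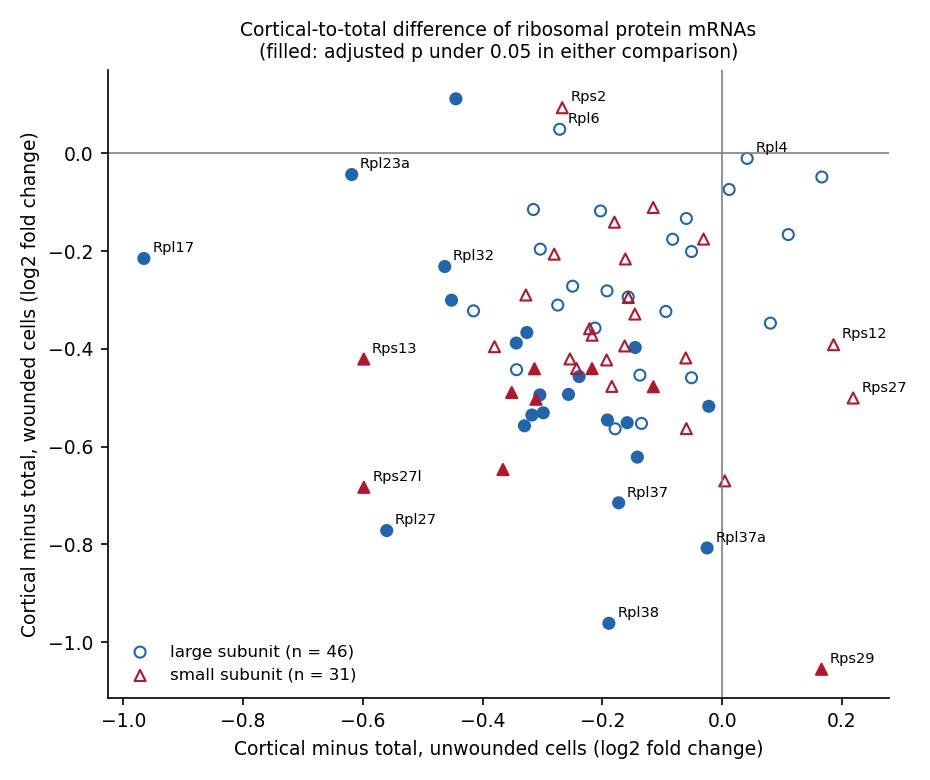
Log2 fold change of cortical over total in unwounded cells (horizontal) and wounded cells (vertical) for 77 ribosomal protein mRNAs (circles large, triangles small subunit, filled where the edgeR adjusted p was under 0.05 in either comparison), with TMM scaling. All but a few lie below 0 on both axes, while with library size alone the medians are 0.00 and -0.16; Rpl17 and Rpl23a are low in unwounded cells and Rps29 and Rpl38 in wounded cells.

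Whether wounding changed the cortical-to-total ratio was tested as a difference of the log2 ratios, wounded minus unwounded. No ribosomal protein mRNA passed (0 of 79, against 0.125% of all genes in either direction). Of the 79, 10 had an unadjusted p under 0.05, 5 in each direction, against 1228 of 13571 genes, 689 higher and 539 lower. DESeq2 and limma also called 0 of the 79. The median was -0.17, against 0.02 for all genes, with 62 of 79 negative. Rps29 had the most negative value (-1.22, SE 0.36, edgeR adjusted p = 0.301) and Rpl17 the most positive among mRNAs with a mean of at least 1000 counts (0.75, SE 0.28, edgeR adjusted p = 0.41). Rpl23a followed with 0.58 (SE 0.17, edgeR adjusted p = 0.305). The larger number of calls in wounded cells is therefore not shown to be a difference between conditions. Without wounded total replicate 1, 16 were called, and with no filter on low counts 6, both without the share over all genes.

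In the total fraction wounding raised 5 and lowered 5 of 79, which is near the background of 8.39% higher and 7.2% lower over all genes. This comparison shares its total libraries with those above, so its values are not independent of them. The family as a whole lay somewhat higher, with a median log2 fold change of 0.18 against -0.03 for all genes and 60 of 79 above 0, and with library size alone the median was 0.08 against -0.10. Small subunit mRNAs made up 4 of the 5 that rose and large subunit mRNAs 4 of the 5 that fell. The wounded libraries lay above all unwounded ones for 2 of 79, against 14.5% of all genes, and below them for 6, against 17.6%. With the gene length trend removed 19 rose and 7 fell, and DESeq2 gave 17 and 7, both without the share over all genes.

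Rps29 rose most, by 1.04 on the log2 scale (SE 0.25, edgeR adjusted p = 0.0114), from the 363, 924 and 654 CPM of unwounded total libraries to 1009, 1539.6 and 1435 CPM. The groups did not overlap. Rps27, another zinc-binding small subunit protein, rose by 0.84 (SE 0.21, edgeR adjusted p = 0.0135), from 363, 746 and 586 CPM to 715, 1203 and 1116 CPM, with wounded replicate 1 below unwounded replicate 2. It lost its call without unwounded total replicate 1 (0.60, adjusted p = 0.0564) or wounded total replicate 2 (0.69, 0.0555). Rps12, of the small subunit head, and Rpl36a, of the large subunit, had log2 fold changes of 0.62 (SE 0.18, edgeR adjusted p = 0.0267) and 0.60 (SE 0.17, edgeR adjusted p = 0.024). Both overlapped between groups, since Rps12 lay at 2666, 3810.1 and 2288 CPM in unwounded and 3411, 5447 and 4639.6 CPM in wounded libraries, and Rpl36a at 943, 1636 and 1209 CPM and 1529, 2097 and 2115 CPM. Each lost its call without unwounded total replicate 1 or 3 or wounded total replicate 2 or 3 (Rps12 0.46 to 0.60, adjusted p = 0.054 to 0.125, and Rpl36a 0.43 to 0.57, adjusted p = 0.0697 to 0.118). With pseudogene counts added Rps12 was at 0.45 (adjusted p = 0.105). Rpsa, a small subunit protein also known as the laminin receptor, had 0.44 (SE 0.13, edgeR adjusted p = 0.035), and its call was lost with pseudogene counts added (0.26, adjusted p = 0.183) and without any library other than unwounded total replicate 2 or wounded total replicate 1 (0.34 to 0.44, adjusted p = 0.0511 to 0.137).

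The 5 that fell in the total fraction included the paralogs Rpl22l1 and Rpl7l1. Rpl22l1, the paralog of Rpl22, went from 175, 179 and 115 CPM to 97.9, 110.3 and 109.7 CPM (log2 fold change -0.56, SE 0.14, edgeR adjusted p = 0.0143), without overlap. Rpl7l1, a relative of Rpl7 that acts in large subunit assembly, went from 97.3, 96.7 and 89.0 CPM to 63.6, 69.5 and 72.5 CPM (-0.46, SE 0.11, edgeR adjusted p = 0.0116), also without overlap. Rpl22l1 lost its call without unwounded total replicate 1 (-0.47, adjusted p = 0.0764) or 2 (-0.47, 0.0651), and Rpl7l1 without replicate 1 (-0.44, 0.0503). Rpl23a went from 1387, 1362 and 1002 CPM to 867, 862 and 837 CPM (-0.55, SE 0.12, edgeR adjusted p = 0.00567), again without overlap, and kept its call with each library left out. Its wounded total level was thus close to its level in both cortical groups, where it lay between 781 and 900.1 CPM. Rpl32 had -0.43 (SE 0.12, edgeR adjusted p = 0.0242) and Rps2, at the entry of the mRNA channel, -0.37 (SE 0.11, edgeR adjusted p = 0.0377). Rpl32 lost its call without unwounded total replicate 1 (-0.44, adjusted p = 0.0574) or 2 (-0.32, 0.0921) or wounded total replicate 3 (-0.36, 0.0753). Rps2 lost it without any library other than unwounded total replicate 3 or wounded total replicate 1 (-0.37 to -0.28, adjusted p = 0.0544 to 0.142). The count of 10 was 2 and 20 without unwounded total replicates 1 and 2, and 52, 5 and 6 without wounded total replicates 1, 2 and 3.

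In the cortical fraction the family hardly moved with wounding. The median log2 fold change was 0.02, as for all genes, with 45 of 79 above 0, and it changed sign with library size alone (-0.03 against -0.04 for all genes). Only Rpl17 passed, 1 of 79 higher and 0 lower against 1.6% of all genes higher and 0.884% lower (2.48% in either direction). An unadjusted p under 0.05 was found for 4 of 79, against 2341 of 13571 genes. The fit shared its estimate of spread with the total libraries, which varied more. With only the compared groups in the fit, more of the 79 were called, as given in the last part. Rpl17 went from 470.3, 664 and 466 CPM in unwounded to 1066, 847 and 841 CPM in wounded cortical libraries (log2 fold change 0.78, SE 0.20, edgeR adjusted p = 0.0435), without overlap. With pseudogene counts added it was 0.15 (adjusted p = 0.677), and the call was lost without any wounded cortical library, without unwounded cortical replicate 1 or 3, and without unwounded total replicate 1 or wounded total replicate 2 (0.66 to 0.84, adjusted p = 0.0568 to 0.176). Without wounded total replicate 1, 2 were called. The wounded libraries lay above all unwounded ones for 19 of 79, against 15.4% of all genes, and below them for 12, against 11.5%.

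By place in the ribosome, no region stood out in every comparison. The stalk and its base (Rplp0, Rplp1, Rplp2, Rpl12) had 0 of 4 calls in unwounded cells with a median of -0.17, and 2 of 4, Rplp1 (-0.40) and Rplp2 (-0.46), fell in the wounded cortical fraction with a median of -0.34. Of the 5S particle, Rpl11 fell in the wounded cortical fraction (-0.49, SE 0.14, edgeR adjusted p = 0.0259) and Rpl5, its partner in binding 5S RNA and the p53 regulator Mdm2, had -0.17 (adjusted p = 0.451). Rpl5 lay at 3570.3, 4158 and 3720.1 CPM in unwounded total and 4102, 4166 and 4091 CPM in unwounded cortical libraries, one of 9 mRNAs with a value above 0 there. Of the 7 proteins at the exit tunnel, 2 fell in unwounded cells (Rpl17 and Rpl23a, list median -0.33) and 4 in wounded cells (Rpl19, Rpl26, Rpl31 and Rpl35, list median -0.54), and none of the 7 passed in both. Among Rps2, Rps3, Rpsa and Rps6 of the small subunit, only Rpsa fell in the wounded cortical fraction (-0.48, SE 0.13, edgeR adjusted p = 0.0238), and with pseudogene counts added it was at -0.34 (adjusted p = 0.0817). Rps3, which helps grip the mRNA, had -0.18 there, Rps2 0.09 and Rps6, the substrate of S6 kinase, -0.11. Rps6 was among the steadiest, with 2609, 3239 and 2635 CPM in unwounded total, 2555, 2711 and 2567 in unwounded cortical, 2685, 2766 and 2867 in wounded total and 2564, 2604 and 2538 CPM in wounded cortical libraries.

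Paralogs are given beside their partners, with no test of the difference between them. The 3 paralogs with enough counts, Rps27l, Rpl7l1 (-0.45) and Rpl22l1 (-0.44), all fell in the unwounded cortical fraction, where of their partners Rpl7 fell, Rps27 had 0.22 (SE 0.21) and Rpl22 -0.19 (SE 0.16). In wounded cells Rps27l and the partners Rpl7 and Rpl22 (-0.55) fell, Rps27 had -0.50 (SE 0.21), Rpl7l1 -0.30 (SE 0.11) and Rpl22l1 0.11 (SE 0.14). Rps27l was nonetheless the lesser of its pair in every unwounded cortical library, at 239, 242 and 224 CPM against 680.1, 635 and 657 CPM for Rps27, and both code for 84 residues, so these CPM compare without a correction for coding length.

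Within the family, the wounded cortical-to-total difference followed coding length. Across the 77 mRNAs with a mean of at least 1000 counts, the log2 fold change in wounded cells and the coding length had a Spearman rho of 0.656, as a description across mRNAs that share libraries. In unwounded cells rho was -0.0718. The 19 with the shortest coding sequences, 25 to 119 residues, had a median of -0.55 in wounded and -0.15 in unwounded cells, and 10 and 1 of them fell. The 20 with the longest, 208 to 419 residues, had a median of -0.19 in wounded and -0.15 in unwounded cells, and 2 fell in each. Rps29 (56 residues), Rpl38 (70 residues) and Rpl37a (92 residues) belong to the short class and Rpl4 (419 residues, -0.01 in wounded cells) to the long one. In the total fraction, whose wounded libraries are shared with the comparison above, the order was the other way round, with a rho of -0.412 for wounded minus unwounded and medians of 0.36 in the short and 0.08 in the long class.

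Single libraries within a group differed along the same axis. Unwounded total replicate 2 minus the other two of its group had a rho of -0.839 with coding length, unwounded total replicate 1 had 0.58, wounded total replicate 2 had -0.62, and wounded cortical replicate 2 had 0.485. Computed from mean log2 CPM, the wounded rho was 0.638, and between 0.567 and 0.657 with each of the 6 libraries left out. The unwounded rho was -0.126 and turned from -0.315 without unwounded total replicate 2 to 0.223 without replicate 1. Over all 13571 genes the log2 fold change had a rho of 0.335 in unwounded and 0.366 in wounded cells with the length of the gene's exons. With that same length, in place of coding length, the 77 mRNAs had a rho of 0.0254 in unwounded and 0.308 in wounded cells. The part of these length differences between libraries in the results was not tested.

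**Figure D5:**
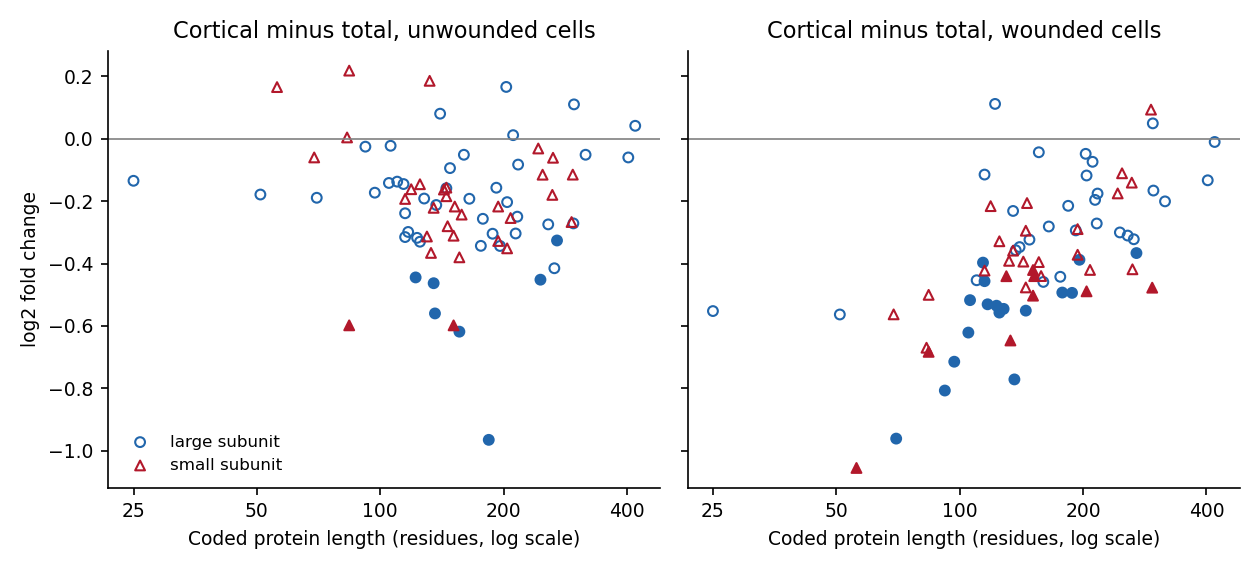
Log2 fold change of cortical over total (vertical, TMM scaling) against the length of the coded protein (residues, log scale) for 77 ribosomal protein mRNAs in unwounded (left) and wounded cells (right), filled where the edgeR adjusted p was under 0.05. In wounded cells the short ones lie lowest (Spearman rho 0.656), in unwounded cells there is no such order (-0.0718).

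The 13 mRNAs with a pyrimidine run at the annotated start did not stand apart in size of change. Their median log2 fold change was -0.20 in unwounded and -0.44 in wounded cells for cortical over total, against -0.18 and -0.38 for the 46 tested mRNAs whose window lacked it. In wounded cells 5 of 13 and 15 of 46 fell, and in unwounded cells 0 of 13 and 5 of 46. Annotated starts can lie some bases off, so the 46 may include mRNAs with the motif. The split therefore cannot compare mRNAs with and without a TOP motif. Of the 6 shown above, Rpl38, Rpl35 (-0.54), Rplp2 (-0.46) and Rps18 (-0.44) fell in the wounded cortical fraction, and Rps27 (-0.50, adjusted p = 0.125) and Rps6 did not pass.

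Values of 3 ribosomal proteins whose gene names lie outside the rule are given beside the family. Fau, a small subunit protein made as a fusion with a ubiquitin-like protein, fell in the wounded cortical fraction (-0.50, SE 0.15, edgeR adjusted p = 0.0309). Rack1, a scaffold on the small subunit that binds kinases, had log2 fold changes of -0.10 in unwounded and 0.03 in wounded cells for cortical over total and lay between 1641 and 2004 CPM in all 12 libraries. Rpl36al, a paralog of Rpl36a, had at most 1.75 CPM.

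Genes around the family moved in mixed directions. Of 22 other RNAs known for a TOP motif, among them the noncoding Gas5 and Snhg1, 1 rose and 4 fell in the unwounded cortical fraction (4.55% and 18.2%), against 6.62% and 7.59% of all genes. In the wounded one 1 rose and 3 fell (4.55% and 13.6%), against 7.62% and 8.03% of all genes. Btf3 and Naca, which form the complex that guards new peptides at the exit tunnel, fell by 0.66 and 0.52 in unwounded and by 0.37 and 0.55 in wounded cells on the log2 scale, while Eif4b rose by 0.31 in unwounded and Pabpc1, the poly(A)-binding protein, by 0.43 in wounded cells. For 26 ribosome assembly genes, the median change with wounding in the total fraction was -0.28, against -0.03 for all genes. Of the 26, 1 rose and 8 fell there (3.85% and 30.8%), against 8.39% and 7.2% of all genes. Examples that fell were Utp4 (-0.88), Dkc1 (-0.79), Nop56 (-0.71) and Nop58 (-0.68), which act on ribosomal RNA precursors. Nop56 (-0.54) and Nop58 (-0.44) also fell with wounding in the cortical fraction, 2 of 26 (7.69%), against 0.884% of all genes. Between the fractions 1 of 26 rose and 4 fell in unwounded cells (3.85% and 15.4%), and 4 rose and 5 fell in wounded cells (15.4% and 19.2%). Utp20 was higher (0.67 and 1.15) and Nhp2 lower (-0.77 and -0.60) in both. Of 12 regulators tested, Rptor of the mTOR complex rose in the cortical fraction in both conditions (0.65 and 0.54) and Eif4ebp1, the translation repressor that mTOR inactivates, fell in both (-0.77 and -0.58). Larp1 rose in unwounded cells (0.40, SE 0.12, edgeR adjusted p = 0.0369). The 12 regulators gave 2 rises and 3 falls there (16.7% and 25%) and 2 and 1 in wounded cells (16.7% and 8.33%). Wounding lowered Myc, a driver of ribosome synthesis, by 0.75 in the total fraction, with 3 of 12 regulators falling (25%, against 7.2% of all genes). In the cortical fraction 0 of 12 changed with wounding, against 2.48% of all genes.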

How the data were processed

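RNA-seq libraries from 12 samples in 4 groups of 3 were read as deposited. The deposited table gives counts per gene and the authors' FPKM, counts divided by the length of a gene's exons and by library size. Per the submitters' processing notes, reads were processed with CASAVA and aligned to mm10 with HISAT2 (versions not given in the sources used here), and the counting tool is not given there either. Per the labels' protocols the library kit was not directional, so reads from antisense or near-identical copies may be shared. Coding lengths came from GENCODE M21, in which 81 of the 83 genes had the same position, and start windows from RefSeq GRCm38.p6.

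Counts were analysed with edgeR 4.0.16 in R 4.3.3: the filterByExpr filter, TMM factors, 1 quasi-likelihood fit over all 12 libraries with a mean per group, 5 two-sided contrasts, and Benjamini-Hochberg adjustment over 13571 genes at 0.05. The fit was tested on counts simulated for the unwounded cortical contrast. It recovered 51% of 2-fold and 18.4% of smaller changes, and 9.46% of its calls were false, against 23.1% for DESeq2. With a bias on gene length added to the simulated counts, 94.2% of the edgeR calls were false, and 4.62% after the length trend was removed. Named genes were, for each contrast and direction, the 6 with the largest change among mRNAs past the threshold with a mean of at least 100 counts, the 3 with the highest FPKM, the lowest tested, and the fixed structural lists, paralogs with their partners, and other lists. Rpl4 and the windows shown were chosen after their values were seen. The members and lists were chosen with earlier results of these data known. The alternatives were other scalings (RLE, library size, TMM without the family), DESeq2 1.42.0, limma 3.58.1 on log2(FPKM + 1), other filters, a replicate block, a loess trend on gene length (span 0.5) taken out, only the compared groups, pseudogene counts added, and each library left out. Added after seeing the data were pseudogenes matched by description and the omission of 2 total libraries together. The result of 1 gene on these lists is not reported here.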

Additional observations from a re-analysis of the deposited data

How the results depend on the processing

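Depth was lowest for Rps10 and Rpl29 among the tested mRNAs (498 and 133 counts over 12 libraries), and no difference between groups was detectable for them at this depth. With pseudogene counts added, which then make up nearly all of its counts, Rps10 had -0.50 for cortical over total in wounded cells (edgeR adjusted p = 0.0332). In unwounded cells it then had -0.36 (adjusted p = 0.134). Of 23 calls on named mRNAs, 0 changed direction under any alternative, and limma on FPKM and the fit on the compared groups each lost 11. The 9 calls for cortical over total in unwounded cells became 4 with limma on FPKM and 21 with only the compared groups. In wounded cells the 26 became 11 with library size alone, 43 with DESeq2, 6 with limma, 46 with no filter, 11 with the gene length trend removed and 5 with only the compared groups. For wounding in the total fraction the 10 became 18 with library size alone, 24 with DESeq2, 6 with limma, 25 with no filter, 26 with the length trend removed and 1 with only the compared groups. In the cortical fraction the 1 became 0 with limma, 0 with pseudogene counts added and 21 with only the compared groups. For the change of the ratio the 0 became 6 with no filter. The cause of these shifts was not tested. Shares called over all genes under the same settings are not given, so these counts and those below do not compare the family with other genes.

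With each library left out in turn, the counts ranged from 3 to 32 and from 1 to 64 for the unwounded and wounded cortical contrasts, from 2 to 52 and from 0 to 2 for wounding in total and cortical libraries, and from 0 to 16 for the change of the ratio. The medians ranged from -0.27 to -0.06, -0.55 to -0.30, 0.10 to 0.33, -0.00 to 0.05 and -0.33 to -0.09 in that order. An alternative chosen after seeing the data, and on the values of these mRNAs themselves, left out both unwounded total replicate 2 and wounded total replicate 1 and gave 27, 71, 65, 7 and 57 calls. These counts support no comparison.

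The share of counts rose from 20.9% to 22.3% in unwounded cortical and from 20.6% to 21.9% in wounded cortical libraries with pseudogene counts added, by name or by description alike (22.3% and 21.9%). With mitochondrial genes left out of the total it was 22.4% in total and 21.8% in cortical libraries of unwounded cells, so the order of these means turned, and 23.2% and 21.1% in wounded cells, and the ranges of total and cortical libraries overlapped in both conditions.

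Groups share replicate numbers in the titles, but same-numbered libraries did not deviate together in every pair (correlations of -0.0308 to 0.219 over 10386 genes), so the numbers were not taken as pairs. With the replicate block the counts were 8, 22, 11, 1 and 0, and every call on a named mRNA stayed. With the block and the length trend removed together they were 6, 9, 27, 1 and 0.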

Other observations

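Cd68, a lysosomal protein best known from macrophages, was higher in every wounded than in every unwounded library, at 20.9 to 24.8 CPM and 43.2 to 58.7 CPM in total and 17.8 to 20.9 CPM and 32.9 to 38.6 CPM in cortical libraries, while Lyz2 and Adgre1 were at 0 in all 12. It was picked out after its values were seen.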
